A study of Rattus norvegicus with 325 samples.

Results

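The genes described here are those of the proteasome, taken as every gene line of the raw count tables whose symbol starts with Psm, then a letter from a to g, then a number. The rule matched 49 of the 17315 distinct symbols. Of these, 31 encode the constitutive subunits, 5 are the immunoproteasome members Psmb8, Psmb9, Psmb10, Psme1 and Psme2, and 11 are activators, an inhibitor, assembly chaperones or subunits of restricted tissues. Another 2, Psma3l and Psmc3ip, were matched by name only: Psma3l is named as a close copy of Psma3, so that reads could be split between these genes in the counting, and the product of Psmc3ip is no proteasome subunit. The libraries are bulk RNA sequencing of diaphragm, gastrocnemius, soleus and tibialis anterior of male Sprague Dawley rats, an outbred strain kept free of specific pathogens, with no treatment in any group. Each muscle was sampled at 7 ages, namely at 6 and 9 months, at 12 and 18 months, and at 21, 24 and 27 months. There were 83 libraries of diaphragm, 73 of gastrocnemius, 84 of soleus and 85 of tibialis anterior, with 9 to 13 in each group of one muscle and age. The tissues of one age were collected on one day, and the effect of age cannot be told apart from that of the collection day in any comparison below.

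The proteasome is the large protease that degrades proteins marked with ubiquitin. Its 20S core is a barrel of stacked rings of alpha and beta subunits, of which Psmb5, Psmb6 and Psmb7 carry the proteolytic sites, and its 19S cap, built around a ring of ATPases, recognises ubiquitin chains and unfolds the substrate. In cells that respond to interferon, Psmb8, Psmb9 and Psmb10 take the places of Psmb5, Psmb6 and Psmb7 in newly assembled cores, and Psme1 and Psme2 form the PA28 cap, so that the peptides made are suited to presentation on class I molecules. In muscle, proteasomal degradation is the main route by which contractile proteins are removed during atrophy.

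The promoter windows of Psmb5 and of the inducible catalytic subunits are shown because expression of these genes is compared throughout. Each runs from 250 bases before to 50 bases after the first base of the gene in RefSeq, on the rat build GRCr8, which is later than the build used for the counts. The windows lie at chr15:32047330-32047629 on the minus strand for Psmb5, chr20:4656982-4657281 on the minus strand for Psmb8, chr20:4668750-4669049 on the plus strand for Psmb9 and chr19:50743243-50743542 on the minus strand for Psmb10. Capitals mark matches, on either strand, to the core of the antioxidant response element (TGACNNNGC), the CCAAT box (CCAAT), the gamma-activated site (TTCNNNGAA, which reads alike on both strands) and the core of the interferon-stimulated response element (GAAANNGAA).
Psmb5: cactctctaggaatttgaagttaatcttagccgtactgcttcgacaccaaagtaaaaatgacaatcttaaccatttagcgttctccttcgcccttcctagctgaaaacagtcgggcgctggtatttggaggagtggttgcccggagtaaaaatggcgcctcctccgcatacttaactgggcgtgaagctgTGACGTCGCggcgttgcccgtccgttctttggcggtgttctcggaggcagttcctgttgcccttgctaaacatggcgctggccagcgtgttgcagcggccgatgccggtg
Psmb8: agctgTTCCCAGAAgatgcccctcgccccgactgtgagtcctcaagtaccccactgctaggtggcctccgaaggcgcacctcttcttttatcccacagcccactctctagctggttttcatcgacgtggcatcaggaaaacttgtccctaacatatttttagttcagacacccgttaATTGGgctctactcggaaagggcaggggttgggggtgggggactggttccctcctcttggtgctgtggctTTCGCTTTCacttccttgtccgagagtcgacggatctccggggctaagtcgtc
Psmb9: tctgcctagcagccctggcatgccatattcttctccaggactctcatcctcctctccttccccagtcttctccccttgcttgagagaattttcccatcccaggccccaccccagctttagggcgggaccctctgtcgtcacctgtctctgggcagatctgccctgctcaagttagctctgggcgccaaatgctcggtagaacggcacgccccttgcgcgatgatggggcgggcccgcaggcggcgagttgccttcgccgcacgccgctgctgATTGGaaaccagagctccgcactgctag
Psmb10: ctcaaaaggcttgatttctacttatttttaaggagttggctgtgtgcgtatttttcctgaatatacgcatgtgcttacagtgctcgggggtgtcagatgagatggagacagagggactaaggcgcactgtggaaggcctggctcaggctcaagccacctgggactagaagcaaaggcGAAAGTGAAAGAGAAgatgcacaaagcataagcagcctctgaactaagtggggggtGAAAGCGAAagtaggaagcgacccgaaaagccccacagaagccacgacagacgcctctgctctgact
The Psmb5 window held 1 antioxidant core, starting at position -60 from the first base of the gene. The Psmb8 window held a gamma-activated site at -245, a CCAAT box at -73 and an interferon-stimulated core at -3. Psmb10 had 3 matches to the interferon-stimulated core, of which a pair overlap, and Psmb9 had a CCAAT box 22 bases after the first base and none of the other motifs. A match is a description of letters, and no binding was measured.

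Total counts ran from 1.76e+07 to 8.53e+07 per library, with medians of 2.79e+07 in diaphragm, 3.5e+07 in gastrocnemius, 3.01e+07 in soleus and 3.63e+07 in tibialis anterior. Levels are given as CPM, the count of a gene relative to its library size after TMM scaling, and changes are log2 changes against 6 months from limma-voom, fitted on all genes of a muscle, with two-sided p-values and Benjamini-Hochberg adjustment over all genes tested. The CPM, and the ranges compared below, use TMM factors of all libraries together. Changes use factors of each muscle alone, so that the CPM and the changes need not match exactly. A gene was called at an adjusted p under 0.05. The p-values measure the spread between libraries of a group. Of the 49 members, 47 were tested in every muscle. Psma8, a testis subunit, had 90 counts in 58 libraries and Psmb11, a thymus subunit, had 457 counts in 151 libraries, and neither was tested. All gastrocnemius libraries carry a series of running numbers of their own, so that gastrocnemius and this series cannot be told apart in comparisons between muscles.

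Some libraries stood apart from others of the same age. The first principal component of the spread within ages in gastrocnemius, computed without the proteasome genes, took 32.8% of that spread, and the score of each library on it is called the library axis below. Mean scores differed between ages, from -1.06 at 24 months to 0.62 at 6 months in gastrocnemius and from -0.62 at 12 months to 1.58 at 27 months in diaphragm. In soleus and tibialis anterior the highest means were those of 18 months, 1.88 and 1.89, and the means at 27 months were 0.80 and 0.83 against -0.31 and -0.30 at 6 months. The highest score, 7.36, was that of a diaphragm library at 18 months, and among the groups compared most below replicate 4 of gastrocnemius at 6 months (replicates are numbered from 0 in the labels) stood at 3.56 and a soleus library at 27 months at 5.63. Values with the axis as a covariate are given where it changed the call of a 27-month change described below.

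Of the 5 immunoproteasome members, 3 were called higher in diaphragm, 2 in gastrocnemius, 4 in soleus and 5 in tibialis anterior, against 20.3%, 33.2%, 27.4% and 37.7% of all genes tested called higher in these comparisons, and 0 were called lower. In gastrocnemius the 2 are near the share of all genes. Psme1 was called in the 3 muscles other than gastrocnemius, Psmb8 in the 3 other than diaphragm, and Psmb10 in soleus and tibialis anterior. With edgeR and with DESeq2, 4 were called in tibialis anterior, and with total-count scaling 4 were called in gastrocnemius. In a bulk library, more cells of a type and more RNA per cell cannot be told apart.

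Psmb8 encodes the inducible subunit that replaces Psmb5. In gastrocnemius its CPM ran from 1.90 through a median of 2.31 to 2.98 in the 10 libraries of 6 months and from 3.61 through 4.72 to 7.65 in the 11 libraries of 27 months. In tibialis anterior it ran from 1.32 through 1.66 to 2.33 and from 2.70 through 4.24 to 6.68 in 12 libraries each. In both muscles every library of 27 months lay above every library of 6 months. The log2 change was 1.11 (SE 0.16, adjusted p = 1.7e-08) in gastrocnemius and 1.38 (SE 0.16, adjusted p = 6.96e-12) in tibialis anterior. In soleus Psmb8 ran from 0.755 through 1.64 to 2.59 CPM at 6 months and from 1.49 through 2.17 to 3.61 at 27 months. The ranges overlapped, and the gene was called, at 0.52 (SE 0.17, adjusted p = 0.00925). In diaphragm it ran from 1.72 through 2.28 to 3.17 and from 1.44 through 2.79 to 4.36 CPM. The 27-month range there enclosed that of 6 months, and the change of 0.24 (SE 0.14, adjusted p = 0.177) was not called.

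Psmb9 encodes the inducible subunit that replaces Psmb6. It ran from 1.26 through 2.10 to 2.35 CPM in gastrocnemius at 6 months and from 2.72 through 3.76 to 5.84 at 27 months, without overlap. The change was 1.00 (SE 0.15, adjusted p = 6.7e-08). In tibialis anterior it ran from 0.518 through 0.956 to 1.68 and from 1.22 through 2.03 to 4.04 CPM, with overlapping ranges and a change of 1.12 (SE 0.20, adjusted p = 6.21e-07). In diaphragm the medians were 1.00 and 1.30 CPM, and Psmb9 rose by 0.41 (SE 0.16, adjusted p = 0.0347). It was lowest in soleus, where the medians were 0.582 and 0.836 CPM and the change of 0.46 (SE 0.29, adjusted p = 0.179) was not called.

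Psmb10, which replaces Psmb7, differed in its muscle pattern. In soleus it ran from 1.22 through 1.89 to 2.39 CPM at 6 months and from 2.52 through 2.90 to 3.84 at 27 months. The ranges did not overlap, and the change was 0.73 (SE 0.13, adjusted p = 2.04e-06). In tibialis anterior the medians were 3.38 and 3.77 CPM and the change 0.25 (SE 0.11, adjusted p = 0.0401). That call was lost with edgeR (adjusted p = 0.0584) and DESeq2 (adjusted p = 0.0579). It was also lost without the filter on low counts (adjusted p = 0.0585) and with sample weights (adjusted p = 0.0767). The medians were 3.47 and 4.21 CPM in gastrocnemius (change 0.18, adjusted p = 0.149) and 3.14 and 3.48 CPM in diaphragm (change 0.10, adjusted p = 0.568), with overlapping ranges in both. In gastrocnemius Psmb10 was called at 27 months with sample weights (0.29, adjusted p = 0.00907). It was also called there at 21 months without weights (0.32, SE 0.11, adjusted p = 0.0368).

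Psme1 and Psme2 encode the alternating subunits of the PA28 cap. Psme1 rose from a median of 40.2 to 57.9 CPM in diaphragm (0.47, SE 0.07, adjusted p = 2.22e-07), from 47.9 to 64.5 CPM in soleus (0.42, SE 0.07, adjusted p = 4.41e-07) and from 33.6 to 44.5 CPM in tibialis anterior (0.49, SE 0.11, adjusted p = 4.48e-05). In gastrocnemius the medians of Psme1 were 76.2 and 68.7 CPM and its change was -0.14 (SE 0.11, adjusted p = 0.233). The medians of Psme2 at 6 and 27 months were 14.4 and 17.1 CPM in diaphragm, 18.7 and 21.7 CPM in gastrocnemius, 10.9 and 14.1 CPM in soleus and 16.7 and 19.7 CPM in tibialis anterior. Psme2 rose in diaphragm (0.28, SE 0.11, adjusted p = 0.035), soleus (0.36, SE 0.10, adjusted p = 0.00147) and tibialis anterior (0.44, SE 0.15, adjusted p = 0.00494), with 0.13 (SE 0.13, adjusted p = 0.378) in gastrocnemius. With total-count scaling Psme2 was called in gastrocnemius too (0.41, adjusted p = 0.00332), as was Psmb10 (0.46, adjusted p = 9.1e-05).

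**Figure D1:**
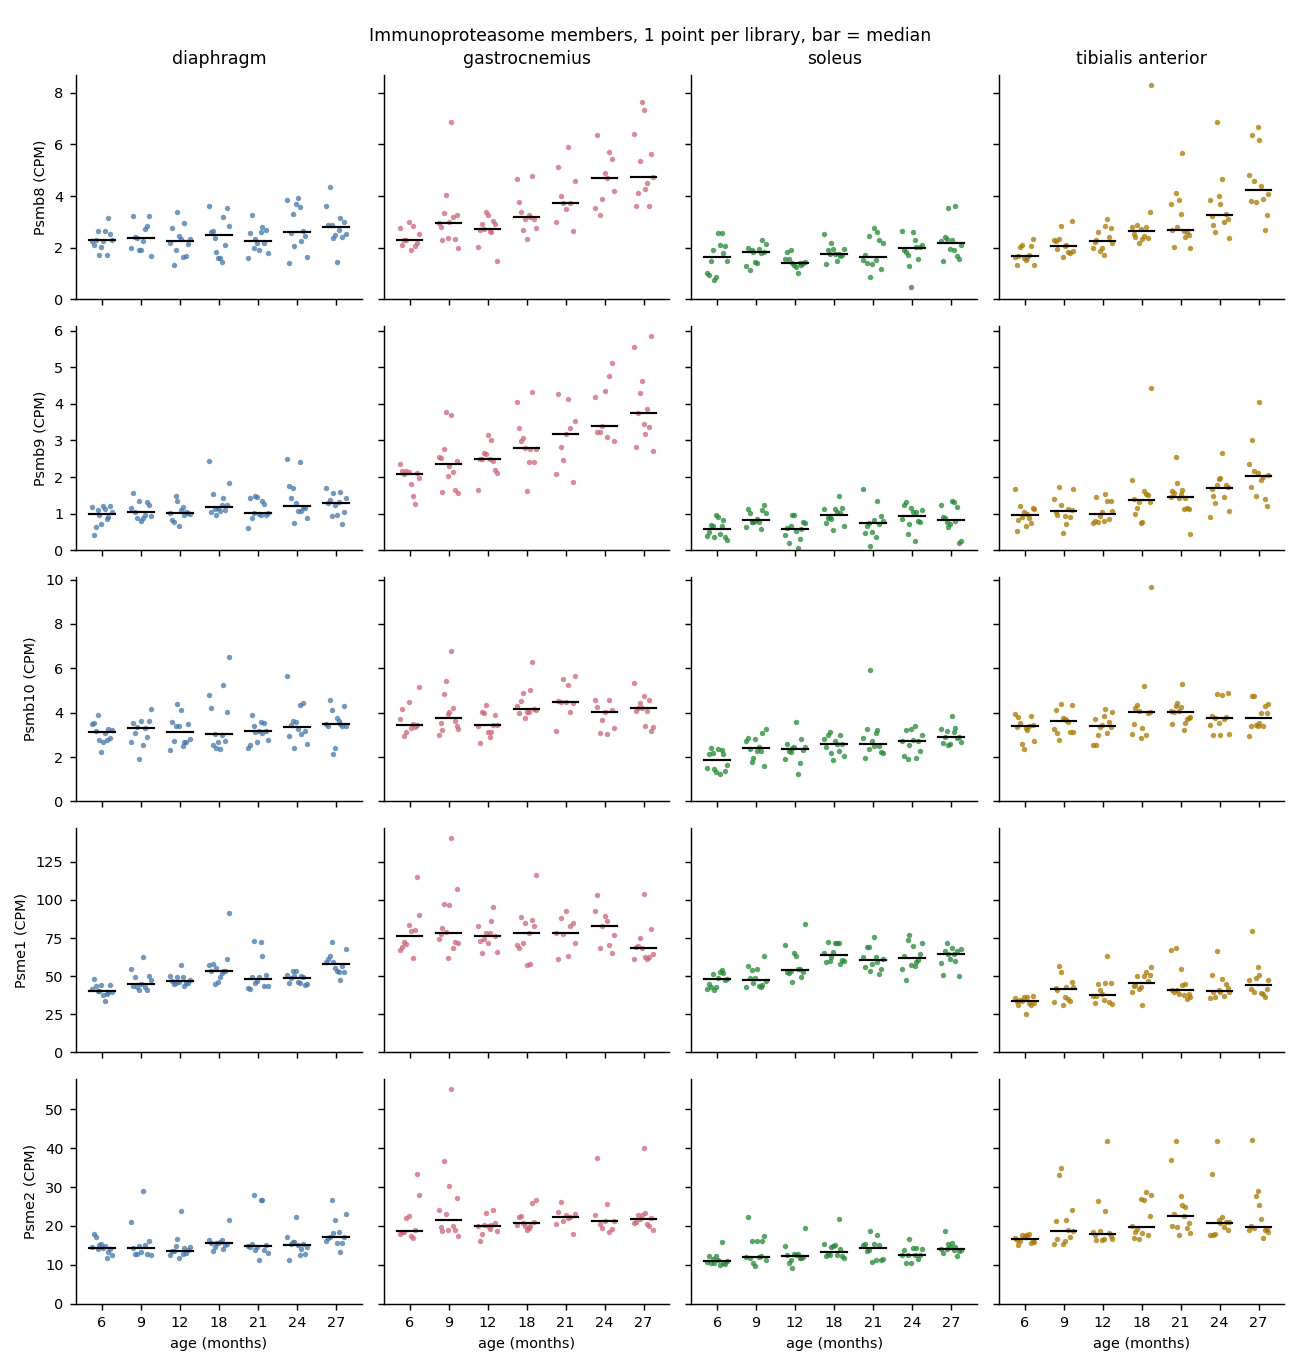
Levels of the 5 immunoproteasome members (rows, CPM on the vertical axis) in the 4 muscles (columns) by age in months, with 1 point per library and a bar at the group median. Psmb8 in gastrocnemius and tibialis anterior shows 27-month libraries, from 3.61 and from 2.70 CPM, that all lie above the 6-month libraries, whereas the ranges overlap in diaphragm and soleus.

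The course over age also differed by muscle. In tibialis anterior the median of Psmb8 was 1.66, 2.08, 2.27, 2.63, 2.69, 3.28 and 4.24 CPM at the 7 ages in order, and the change against 6 months was past 1.5-fold and called from 18 months on. In gastrocnemius the medians were 2.31, 2.97, 2.71, 3.17, 3.74, 4.69 and 4.72 CPM, with a call at 18 months (0.48, SE 0.17, adjusted p = 0.047) and changes past 1.5-fold from 21 months on. Psmb9 was past 1.5-fold and called at 21, 24 and 27 months in both of these muscles. Psmb10 in soleus was called at 18 months (0.48, SE 0.14, adjusted p = 0.00633) and at 24 months (0.54, SE 0.14, adjusted p = 0.00154), and it was past 1.5-fold at 21 months (0.60, SE 0.14, adjusted p = 0.00096) and at 27 months. Psme1 was called earliest, at 12 months in soleus (0.29, SE 0.07, adjusted p = 0.0123), and at every later age in soleus, diaphragm and tibialis anterior from 18 months. All 12 libraries of 12 months in diaphragm, in soleus and in tibialis anterior carry a further series of running numbers that no library of 6 months carries, so that age and series cannot be told apart there.

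The counts of called members by age are as follows, each beside the share of all genes tested that were called. In diaphragm, 0 of 5 immunoproteasome members and 0 of 31 constitutive subunits were called by limma-voom at 9 months (0.424% of all genes), 0 and 1 at 12 months (3.51%), 2 and 6 at 18 months (23.3%), and 1 and 0 at 21 months (8.83%). At an unadjusted p under 0.05, 1 immunoproteasome member passed at 9 and at 12 months in diaphragm, and 2 constitutive subunits at 9 and 0 at 21 months. In gastrocnemius, the counts were 0 and 0 at 9 months (0.312%), 0 and 1 at 12 months (2.24%), 2 and 2 at 18 months (13.3%), and 3 and 5 at 21 months (18.7%). Unadjusted, 1 immunoproteasome member passed at each of the first 2 ages in gastrocnemius and 0 constitutive subunits at 9 months. In soleus, the counts were 0 and 0 at 9 months (0.559%), 1 and 0 at 12 months (2.55%), 3 and 8 at 18 months (26.1%), and 3 and 1 at 21 months (13.5%). Unadjusted, 3 immunoproteasome members and 6 constitutive subunits passed in soleus at 9 months and 10 constitutive subunits at 12 months. In tibialis anterior, the counts were 0 and 0 at 9 months (0.00851%), 0 and 0 at 12 months (0.706%), 5 and 11 at 18 months (35.3%), and 5 and 8 at 21 months (27.0%). Unadjusted, 1 and 3 passed in tibialis anterior at 9 months and 2 and 1 at 12 months. Where limma-voom called 0 members, edgeR and DESeq2 also called 0, except for 1 constitutive subunit in soleus, by both at 9 months and by DESeq2 at 12 months.

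At 24 months, calls are given by direction. In diaphragm, 2 immunoproteasome members were called higher and 0 constitutive subunits were called, against 5.43% of all genes called higher and 5.33% lower. In this comparison 1 constitutive subunit passed at an unadjusted p under 0.05, and edgeR and DESeq2 called 0. In gastrocnemius, 2 of 5 and 21 of 31 were called higher and 2 constitutive subunits lower (29.0% and 27.9% of all genes). In soleus, 2 of 5 and 2 of 31 were called higher and 4 constitutive subunits lower (14.6% and 16.1%). In tibialis anterior, 4 of 5 and 22 of 31 were called higher and 1 constitutive subunit lower (29.6% and 27.7%). Constitutive subunits were thus called higher in gastrocnemius and tibialis anterior at 24 months at more than the share of all genes, and in diaphragm and soleus they were not. Mean library axis scores at 6 and 24 months were 0.621 and -1.055 in gastrocnemius and -0.301 and -0.773 in tibialis anterior. Correlations of constitutive subunits with this axis within ages in gastrocnemius ran from -0.93 (Psma3) to 0.87 (Psmb5). The part of the axis in the calls at 24 months was not tested.

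**Figure D2:**
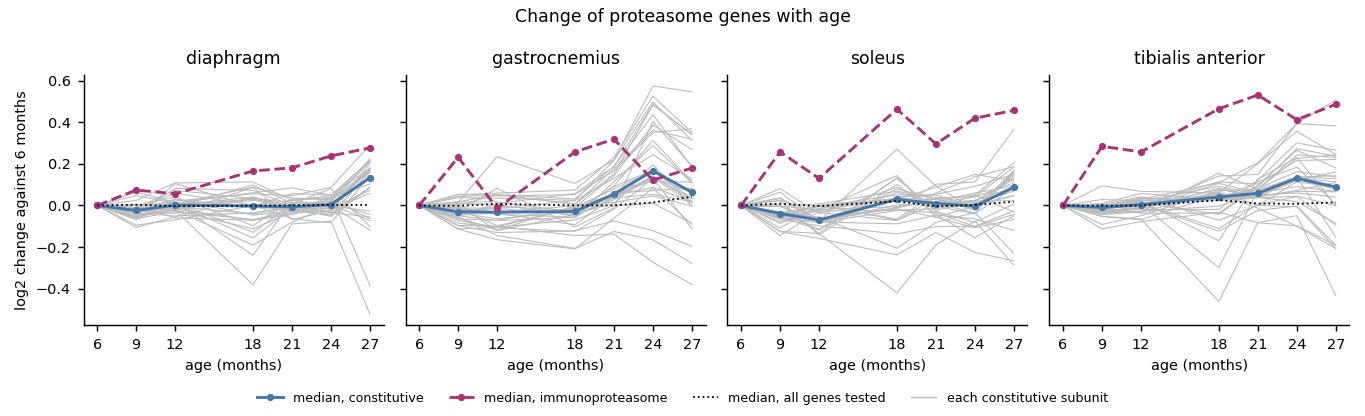
Log2 change against 6 months (vertical axis) by age in months for each constitutive subunit (grey lines), with the medians of the constitutive subunits, of the immunoproteasome members and of all genes tested, in 1 panel per muscle. At 27 months the immunoproteasome median is 0.28 in diaphragm, 0.18 in gastrocnemius, 0.46 in soleus and 0.49 in tibialis anterior, and the constitutive median stays at or below 0.17 at every age.

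Within each library, counts of the inducible subunits were set against those of the subunits they replace. Such a ratio does not depend on the scaling. It compares genes of different length, so its level is not a ratio of transcripts, and it is given as a description. In gastrocnemius Psmb8 had a median of 1.62 counts per 100 Psmb5 counts at 6 months, with a range from 1.35 to 2.19, and of 3.96 at 27 months, with a range from 2.64 to 6.40. In tibialis anterior the medians were 1.5 and 3.46. Both muscles started below diaphragm and soleus, with 3.12 and 2.72 at 6 months, and at 27 months all 4 medians lay between 3.34 and 3.96. Psmb9 per 100 Psmb6 counts had medians of 1.78 and 4.52 in gastrocnemius, 1.47 and 3.62 in tibialis anterior, 1.30 and 2.05 in soleus and 2.09 and 2.42 in diaphragm. The highest fold between the medians, 2.54, was that of Psmb9 in gastrocnemius. A ratio also moves with its lower term, and Psmb6 fell there by 0.38 on the log2 scale with TMM. Within ages Psmb6 correlated by 0.82 with the library axis in gastrocnemius. The CPM medians of Psmb9 alone were 2.10 and 3.76. Psmb10 per 100 Psmb7 counts had medians of 0.887 and 1.37 in soleus, a fold of 1.55, and folds from 0.932 to 1.21 in the other muscles.

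**Figure D3:**
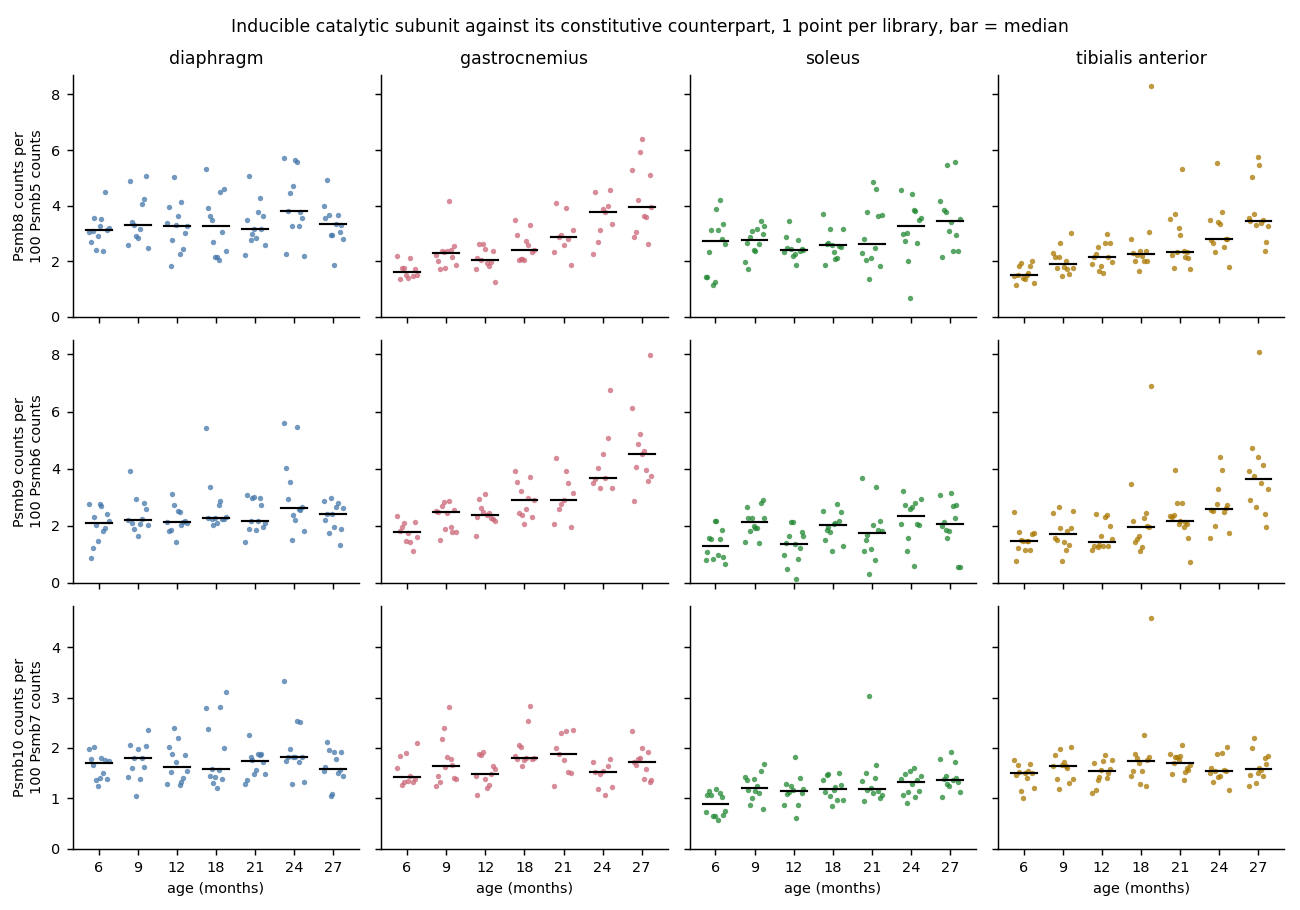
Counts of Psmb8, Psmb9 and Psmb10 per 100 counts of Psmb5, Psmb6 and Psmb7 within each library (rows) by age in months in the 4 muscles (columns), with 1 point per library and a bar at the group median. The ratios of Psmb8 and Psmb9 in gastrocnemius and tibialis anterior climb to medians of 3.46 to 4.52 at 27 months, and that of Psmb10 moves from 0.887 to 1.37 in soleus.

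The constitutive counterparts Psmb5, Psmb6 and Psmb7, which carry the proteolytic sites of the standard core, did not share 1 direction. In diaphragm the medians of Psmb5 were 73.3 and 82.6 CPM, of Psmb6 47.5 and 54.6 CPM and of Psmb7 187 and 215 CPM at 6 and 27 months, and all rose, by 0.15 (adjusted p = 0.00307), 0.17 (adjusted p = 0.00161) and 0.16 (adjusted p = 2.57e-06). In gastrocnemius Psmb6 ran from 98.6 through 105 to 146 CPM at 6 months and from 68.7 through 88.6 to 98.5 CPM at 27 months, without overlap, and fell by 0.38 (SE 0.07, adjusted p = 2.37e-06). Psmb5 in gastrocnemius ran from 126 through 135 to 200 and from 111 through 125 to 138 CPM, and fell by 0.20 (SE 0.06, adjusted p = 0.00453). With the library axis as a covariate Psmb5 in gastrocnemius was at -0.03 (adjusted p = 0.453) and with sample weights at -0.10 (adjusted p = 0.0736), without a call in either, whereas Psmb6 kept its call with the covariate (-0.21, adjusted p = 0.000107). With total-count scaling Psmb6 was at -0.10 (adjusted p = 0.0799) in gastrocnemius, without a call, and Psmb5 changed sign, to 0.09 (adjusted p = 0.129). In tibialis anterior Psmb6 fell by 0.21 (SE 0.05, adjusted p = 0.000111), whereas Psmb5 rose by 0.11 (adjusted p = 0.00137) and Psmb7 by 0.07 (adjusted p = 0.02). There Psmb6 also changed sign with total-count scaling, to 0.11 (adjusted p = 0.00999). None of these genes was called in soleus, where the changes of Psmb5, Psmb6 and Psmb7 were 0.01, -0.07 and 0.05, although Psmb6 was called with the covariate (-0.11, adjusted p = 0.0224). With total-count scaling Psmb5 (0.15, adjusted p = 0.00195) and Psmb7 (0.19, adjusted p = 8.17e-08) were called in soleus. Psmb6 was then at 0.08 there (adjusted p = 0.064), the opposite sign. Psmb7 in gastrocnemius was at 0.02 (adjusted p = 0.663), and at 0.30 (adjusted p = 8.99e-07) under that scaling. The Psmb7 call in tibialis anterior was lost without the low-count filter (adjusted p = 0.0551) and with 6- and 27-month libraries alone (0.0558).

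Markers of other cells were measured beside the immunoproteasome members, since bulk muscle also holds blood and immune cells. The summed CPM of the 4 leukocyte markers (Ptprc, Cd53, Laptm5, Coro1a) had medians of 43.5 at 6 and 49.6 at 27 months in diaphragm, 18.8 and 40.0 in gastrocnemius, 46.9 and 58.5 in soleus and 16.2 and 37.6 in tibialis anterior. In gastrocnemius the sums ran from 14.2 to 21.7 and from 31.3 to 52.4 CPM and in tibialis anterior from 11.3 to 19.5 and from 22.8 to 46.6 CPM, without overlap. In diaphragm they ran from 37.6 to 70.3 and from 38.1 to 118 CPM and in soleus from 30.8 to 58.6 and from 44.0 to 73.9 CPM. The shares of all genes called higher at 27 months were 20.3%, 33.2%, 27.4% and 37.7% in diaphragm, gastrocnemius, soleus and tibialis anterior. Of these 4 markers, 1 was called higher in diaphragm, 4 in gastrocnemius, 3 in soleus and 4 in tibialis anterior. Of the 9 macrophage markers 5 were called higher in diaphragm and 9 in each of the other muscles, and their sums at 6 and 27 months ran from 127 to 215 and from 188 to 282 CPM in diaphragm, from 106 to 186 and from 201 to 359 CPM in gastrocnemius, from 158 to 255 and from 255 to 351 CPM in soleus, and from 47.5 to 74.6 and from 105 to 222 CPM in tibialis anterior. The leukocyte and macrophage sums thus did not overlap between these ages in gastrocnemius and tibialis anterior. Of all single genes, 14.1% and 20.2% did not overlap in these muscles. In soleus the macrophage ranges only just overlapped, with a highest sum of 255.2 CPM at 6 months and a lowest of 255.1 CPM at 27 months.

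The 6 T cell markers summed to medians of 14.8 and 20.7 CPM in diaphragm, 8.90 and 18.2 CPM in gastrocnemius, 16.1 and 24.4 CPM in soleus and 5.07 and 13.8 CPM in tibialis anterior, with full ranges from 12.5 to 17.9 and from 14.0 to 31.0, from 8.08 to 13.2 and from 12.1 to 23.0, from 10.9 to 19.8 and from 14.9 to 31.7, and from 3.93 to 5.96 and from 6.37 to 16.1 CPM. Of those tested, 3 of 5 were called higher in diaphragm, 2 of 3 in gastrocnemius, 2 of 3 in soleus and 3 of 3 in tibialis anterior. In the same order, 20.3%, 33.2%, 27.4% and 37.7% of all genes were called higher. The defining marker Cd3d was at 0 in 6 of 12 diaphragm libraries at 6 months and never above 0.304 CPM in the groups of 6 and 27 months. The summed B cell markers had medians from 0.0878 to 0.454 CPM, with a highest library of 7.98 CPM in diaphragm at 27 months, and 0 of the 3 were called at 27 months in diaphragm, the muscle in which they were tested. The 10 skeletal muscle markers, which check the labelled tissue, summed to more than 5.03e+04 CPM in every library of these ages. Their sums ran from 2.08e+05 to 2.71e+05 CPM at 6 and from 1.16e+05 to 2.06e+05 CPM at 27 months in gastrocnemius and from 2.24e+05 to 2.51e+05 and from 1.04e+05 to 2.19e+05 CPM in tibialis anterior, with 6 markers called lower in each. In soleus 3 were called higher and 6 lower, and in diaphragm 4 higher and 1 lower. The shares of all genes called lower were 24.7%, 28.9%, 26.4% and 36.5% in diaphragm, gastrocnemius, soleus and tibialis anterior. The 4 genes that mark denervated fibres (Chrnd, Chrng, Musk, Ncam1) were called higher and past 1.5-fold in every muscle, with median changes of 1.33 in diaphragm, 3.30 in gastrocnemius, 1.77 in soleus and 4.32 in tibialis anterior. Of all genes, 7.52%, 22.8%, 15.0% and 27.6% were called past 1.5-fold in either direction. The part of these cells and fibres in the proteasome results was not tested.

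The constitutive subunits moved little and mostly upward. Of the 31, 20 were called higher and 2 lower at 27 months in diaphragm (20.3% and 24.7% of all genes), 12 and 3 in gastrocnemius (33.2% and 28.9%), 15 and 4 in soleus (27.4% and 26.4%) and 19 and 8 in tibialis anterior (37.7% and 36.5%). As shares of the 31, the calls of higher level were 64.5%, 38.7%, 48.4% and 61.3%. That of gastrocnemius lies near the share of all genes, and so does its median change below. Without the filter on low counts the gastrocnemius medians were 0.0417 for the constitutive subunits and 0.047 for all genes. Median changes were 0.13 in diaphragm, 0.06 in gastrocnemius, 0.09 in soleus and 0.09 in tibialis anterior, beside medians over all genes of 0.0026, 0.0423, 0.0186 and 0.0151. The changes ran from -0.52 to 0.29, from -0.38 to 0.55, from -0.29 to 0.36 and from -0.43 to 0.51, and no constitutive subunit was called past 1.5-fold, against 7.52%, 22.8%, 15.0% and 27.6% of all genes.

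The split depended on the scaling. With total counts in place of TMM, the median of all genes moved to 0.04, 0.32, 0.16 and 0.34 and the calls of constitutive subunits to 22 higher and 2 lower in diaphragm, 28 and 0 in gastrocnemius, 26 and 2 in soleus and 30 and 0 in tibialis anterior. Shares of all genes called are given for TMM only, here and between muscles below. Counts under total-count scaling therefore cannot be set against such a share. Relative to the median of all genes, the constitutive median was higher by 0.131, 0.0212, 0.0684 and 0.074 with TMM and by 0.129, 0.0259, 0.0699 and 0.0741 with total counts. The share of a library's counts taken by the 31 subunits had medians of 0.310% and 0.337% in diaphragm, 0.298% and 0.388% in gastrocnemius, 0.330% and 0.383% in soleus and 0.302% and 0.395% in tibialis anterior at 6 and 27 months. In tibialis anterior these shares ran from 0.295% to 0.309% and from 0.340% to 0.482%, without overlap. The shares are of unscaled counts, with which the median of all genes also rose, by 0.34 in tibialis anterior. How many genes did not overlap on this measure is not given.

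By role, the beta ring, which holds the proteolytic subunits, was called higher in 7 of 7 members in diaphragm, in 1 higher and 2 lower in gastrocnemius, in 2 higher in soleus, and in 6 higher and 1 lower in tibialis anterior. Of all genes, 20.3% were called higher and 24.7% lower in diaphragm and 33.2% and 28.9% in gastrocnemius. The shares were 27.4% and 26.4% in soleus and 37.7% and 36.5% in tibialis anterior. Of the 7 alpha subunits, which form the outer rings and gate the channel, 3 were higher and 1 lower in diaphragm, 4 and 1 in gastrocnemius, 2 and 1 in soleus and 3 and 3 in tibialis anterior. Of the 6 ATPases of the cap, 3 were higher and 1 lower in diaphragm, 2 higher in gastrocnemius, 3 higher and 1 lower in soleus and 4 higher and 2 lower in tibialis anterior. Of the 11 other cap subunits, which include the ubiquitin receptor Psmd4 and the deubiquitinase Psmd14, 7 were higher in diaphragm, 5 in gastrocnemius, 8 in soleus with 2 lower, and 6 in tibialis anterior with 2 lower. Some of these counts lie near the shares of all genes, such as the alpha ring in tibialis anterior and the ATPases called higher in gastrocnemius. The median change of the beta ring was 0.20 in diaphragm and -0.09 in gastrocnemius, and that of the alpha ring was -0.03 and 0.31. These medians moved with the library axis: with it as a covariate those of the beta ring were 0.16 and -0.03 and those of the alpha ring 0.12 and 0.11. The calls of the beta ring were then 5 higher in diaphragm, 2 higher and 2 lower in gastrocnemius, 2 and 1 in soleus and 5 and 1 in tibialis anterior, and those of the alpha ring 4 and 1, 4 and 3, 2 and 1, and 4 and 3. The ATPases were called higher in 4, 3, 3 and 3 and lower in 0, 0, 1 and 1 in the same order of muscles, and the other cap subunits higher in 9, 6, 7 and 6 and lower in 0, 0, 2 and 1. For the fit with the covariate, here and below, no share of all genes called is given beside the counts.

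**Figure D4:**
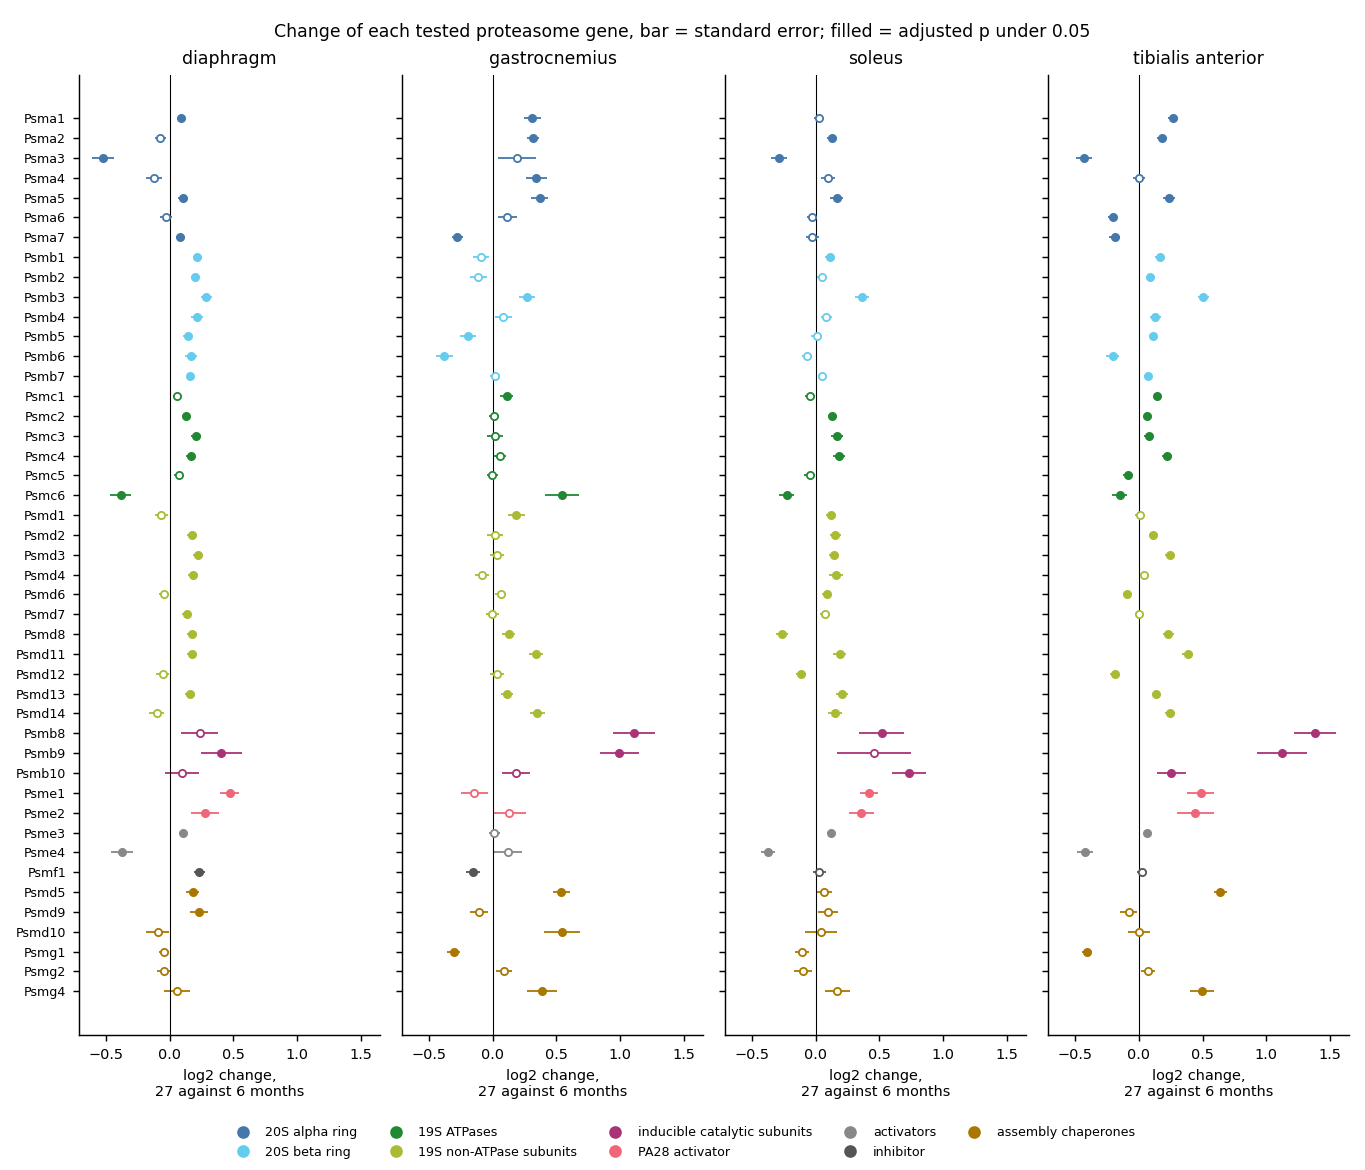
Log2 change at 27 against 6 months (horizontal axis) of each tested proteasome gene with a known role (rows, coloured by role) in 1 panel per muscle, with bars of 1 standard error and filled points at an adjusted p under 0.05. Psma3l and Psmc3ip, matched by name only, are not drawn. Psmb8 at 1.11 and 1.38 and Psmb9 at 1.00 and 1.12 lie far to the right in gastrocnemius and tibialis anterior, and the constitutive subunits lie between -0.52 and 0.55.

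Psmb3, a beta subunit without a proteolytic site, was called higher in all 4 muscles and was the constitutive subunit with the highest change in 3 of them. Psmd11 (0.18 to 0.38), Psma5 (0.10 to 0.37) and Psmd13 (0.11 to 0.21) were also called higher in all 4 muscles. They are given below only in the muscle where each was at the upper end. Its ranges at 6 and 27 months were 55.9 to 67.1 and 69.0 to 89.3 CPM in diaphragm, around medians of 62.4 and 78.4, and 63.3 to 75.8 and 85.0 to 116 CPM in tibialis anterior, around medians of 69.3 and 100 CPM. These did not overlap. In gastrocnemius the medians were 71.5 and 90.9 CPM and in soleus 64.2 and 83.3 CPM, with overlapping ranges. Psmb3 rose by 0.29 (SE 0.04, adjusted p = 1.91e-08) in diaphragm, 0.27 (SE 0.06, adjusted p = 9.72e-05) in gastrocnemius, 0.36 (SE 0.06, adjusted p = 3.76e-08) in soleus and 0.51 (SE 0.04, adjusted p = 1.77e-17) in tibialis anterior.

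Other subunits at the upper end were Psmd3, Psmd11 and Psmd13, scaffold subunits of the cap, and the alpha subunit Psma5. Psmd3 rose in diaphragm from a median of 94.4 to 114 CPM (0.22, SE 0.04, adjusted p = 3.3e-06), and its correlation with the library axis there was 0.69, with 0.11 (adjusted p = 0.0122) under the covariate. Psmd11 rose in tibialis anterior from a range of 167 to 191 to one of 200 to 292 CPM (0.38, SE 0.04, adjusted p = 1.41e-13), without overlap. Psma5 rose in gastrocnemius from a median of 37.7 to 46.7 CPM (0.37, SE 0.07, adjusted p = 2.15e-06), and 9 of 11 libraries of 27 months lay above the highest of 6 months. Psmd13 rose in soleus from 34.8 to 39.6 CPM in the median (0.21, SE 0.05, adjusted p = 0.000122). At the lower end, beside Psma3 and Psmc6, Psmb6 and Psma7 fell in gastrocnemius, Psma7 by 0.28 (SE 0.04, adjusted p = 3.45e-08) from a median of 104 to 84.3 CPM. With total-count scaling the change of Psma7 was 0.00 (adjusted p = 0.934). Psmd8, a cap subunit, fell in soleus by 0.27 (SE 0.05, adjusted p = 3.34e-06), from 90.7 to 74.5 CPM in the median. In the other muscles Psmd8 was called higher, by 0.18 in diaphragm, 0.13 in gastrocnemius and 0.23 in tibialis anterior. Psma6, an alpha subunit, fell in tibialis anterior by 0.21 (SE 0.04, adjusted p = 9.22e-07), and with total-count scaling it was at 0.11 (adjusted p = 0.0129), the opposite sign.

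Ranges at 27 and 6 months did not overlap for 1 tested member in diaphragm, 7 in gastrocnemius, 1 in soleus and 9 in tibialis anterior, of 47 each, beside 2.85%, 14.1%, 5.64% and 20.2% of all genes. In gastrocnemius these were Psma2, Psmb8, Psmb9, Psmd5, Psmd11 and Psmd14 above and Psmb6 below, and in tibialis anterior Psma1, Psmb1, Psmb3, Psmb8, Psmd3, Psmd5, Psmd8 and Psmd11 above and the assembly chaperone Psmg1 below. These shares lie near those of all genes.

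Psma3, an alpha subunit, and Psmc6, an ATPase of the cap, moved with the library axis. Psma3 ran from 62.4 through 66.7 to 71.9 CPM at 6 months and from 38.7 through 46.8 to 68.2 CPM at 27 months in diaphragm, with 10 of 12 libraries of 27 months below the lowest of 6 months, and fell by 0.52 (SE 0.08, adjusted p = 3.64e-07). It fell by 0.29 (SE 0.06, adjusted p = 5.55e-05) in soleus and by 0.43 (SE 0.06, adjusted p = 6.37e-09) in tibialis anterior and was at 0.19 (SE 0.15, adjusted p = 0.271) in gastrocnemius. Psmc6 ran from 63.3 through 72.8 to 77.0 CPM and from 43.5 through 54.4 to 80.1 CPM in diaphragm and fell by 0.38 (SE 0.08, adjusted p = 5.21e-05). It fell by 0.23 (SE 0.06, adjusted p = 0.000488) in soleus and by 0.15 (SE 0.06, adjusted p = 0.0184) in tibialis anterior, where total-count scaling gave 0.17 (adjusted p = 0.0165). With that scaling Psma3 in tibialis anterior was at -0.11 (adjusted p = 0.124) and Psmc6 in soleus at -0.08 (adjusted p = 0.2), and neither was called. In gastrocnemius it ran from 34.8 through 69.0 to 82.4 CPM and from 80.2 through 93.6 to 102 CPM and rose by 0.55 (SE 0.13, adjusted p = 0.000263), with 0.57 (SE 0.14, adjusted p = 0.00033) at 24 months.

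Within ages, the correlation of log2 CPM with the library axis was -0.93, -0.93, -0.58 and -0.77 for Psma3 and -0.90, -0.92, -0.65 and -0.84 for Psmc6 in diaphragm, gastrocnemius, soleus and tibialis anterior, over 83, 73, 84 and 85 libraries. For Psmb5 it was 0.70, 0.87, 0.50 and 0.59. These are descriptions, since the axis and the genes come from the same libraries. With the axis as a covariate the change of Psma3 was -0.15 in diaphragm, -0.27 in gastrocnemius, -0.18 in soleus and -0.29 in tibialis anterior, each called (adjusted p from 4.84e-09 to 0.00272), so that the sign in gastrocnemius was reversed. That of Psmc6 was -0.04 (adjusted p = 0.479), 0.15 (adjusted p = 0.017), -0.12 (adjusted p = 0.0216) and -0.01 (adjusted p = 0.776). Psmb8 was at 0.11, 1.29, 0.50 and 1.43 and was called in the same 3 muscles. Of the immunoproteasome members 1, 3, 4 and 4 were then called, since Psmb9 (0.27, adjusted p = 0.219) and Psme2 (0.23, adjusted p = 0.125) lost their calls in diaphragm, Psmb10 lost its call in tibialis anterior (0.21, adjusted p = 0.108) and gained one in gastrocnemius (0.38, adjusted p = 0.000933). The constitutive calls were 23, 20, 19 and 24. In diaphragm the rises of Psmb5 and Psmb6 fell to 0.02 (adjusted p = 0.718) and 0.03 (adjusted p = 0.537).

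The gastrocnemius library of 6 months with the highest score, replicate 4, had 29.0 CPM of Psma3, 34.8 of Psmc6, 200 of Psmb5 and 146 of Psmb6, the lowest values of the first 2 and the highest of the others among the 10 libraries. Without it Psmc6 in gastrocnemius rose by 0.42 (adjusted p = 0.00285), Psmb5 fell by 0.17 (adjusted p = 0.0111), and 10 constitutive subunits were called higher and 3 lower. With Psma3 and Psma3l counted together, the change was -0.31, 0.06, -0.19 and -0.31 in the order of muscles above. Psma3l itself was at -0.14 (adjusted p = 0.0328), -0.07, -0.11 (adjusted p = 0.0597) and -0.20 (adjusted p = 0.0016), and with the axis as a covariate at 0.06 (adjusted p = 0.298) in diaphragm and -0.31 (adjusted p = 9.75e-05) in gastrocnemius.

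**Figure D5:**
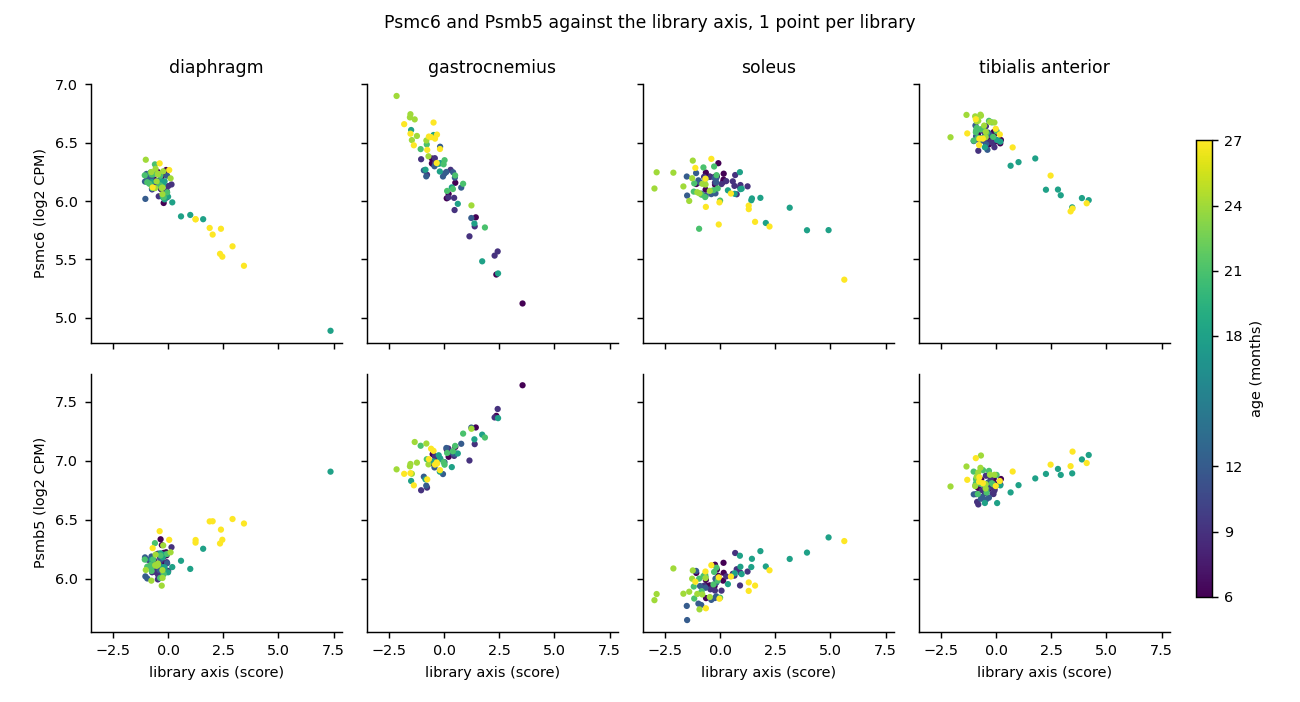
Psmc6 and Psmb5 (rows, log2 CPM) against the library axis score (horizontal axis) in the 4 muscles (columns), with 1 point per library coloured by age in months. Psmc6 falls and Psmb5 climbs along the axis, with within-age correlations of -0.65 to -0.92 and of 0.50 to 0.87, and diaphragm libraries of 27 months spread to the right, around a mean score of 1.58.

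Among the other members, Psme4 encodes the PA200 activator. It ran from 1009 through 1106 to 1196 CPM at 6 months and from 567 through 839 to 1150 CPM at 27 months in tibialis anterior and fell by 0.43 (SE 0.06, adjusted p = 8.61e-09), with -0.11 (adjusted p = 0.0847) under total-count scaling. It fell by 0.37 in diaphragm (SE 0.08, adjusted p = 0.000174) and by 0.37 in soleus (SE 0.06, adjusted p = 4.06e-08) and was at 0.12 (adjusted p = 0.377) in gastrocnemius. Its correlations with the library axis were -0.88, -0.93, -0.69 and -0.65, and with the covariate the changes were -0.01 (adjusted p = 0.885), -0.23 (adjusted p = 1.1e-05), -0.26 and -0.31 in the order diaphragm, gastrocnemius, soleus and tibialis anterior, the last 3 called. Psme3, the nuclear PA28 subunit, was called higher in diaphragm (0.11), soleus (0.12) and tibialis anterior (0.07). The inhibitor Psmf1 rose in diaphragm (0.23, SE 0.04, adjusted p = 2.6e-06) and fell in gastrocnemius by 0.15 (SE 0.05, adjusted p = 0.0106). Its correlations with the library axis were 0.60 and 0.61 in these muscles, and with the covariate its changes were 0.14 (adjusted p = 0.00306) and -0.07 (adjusted p = 0.215), without a call in gastrocnemius.

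Of the assembly chaperones, Psmd5, which binds the ATPase ring during assembly, changed past 1.5-fold in tibialis anterior. It ran from 25.1 through 26.9 to 28.8 CPM at 6 months and from 37.6 through 40.6 to 50.6 CPM at 27 months, without overlap, and the change was 0.64 (SE 0.05, adjusted p = 1.92e-18). In gastrocnemius it ran from 20.4 through 22.6 to 24.9 and from 27.8 through 31.6 to 38.5 CPM, also without overlap (0.54, SE 0.07, adjusted p = 2.42e-10). It rose in diaphragm (0.18, adjusted p = 0.00213) and was at 0.07 (adjusted p = 0.325) in soleus. Psmg1, a chaperone of alpha-ring assembly, fell by 0.41 in tibialis anterior (SE 0.04, adjusted p = 1.32e-14), from a range of 23.8 to 26.9 CPM to one of 15.8 to 21.3 CPM, and by 0.31 in gastrocnemius (SE 0.05, adjusted p = 7.23e-07). Psmg4, another chaperone of the alpha ring, rose in gastrocnemius (0.39, SE 0.12, adjusted p = 0.00321) and tibialis anterior (0.49, SE 0.09, adjusted p = 2.58e-06), and of the chaperones of the ATPase ring Psmd9 rose in diaphragm (0.23, adjusted p = 0.00703) and Psmd10 in gastrocnemius (0.55, SE 0.14, adjusted p = 0.000549). With the covariate neither was called, at 0.15 (adjusted p = 0.117) for Psmd9 and at 0.17 (adjusted p = 0.134) for Psmd10, whose correlation with the axis in gastrocnemius was -0.74. Psmg2 was not called in any muscle at 27 months, with changes of -0.27 (adjusted p = 0.0032) in soleus and 0.12 (adjusted p = 0.0496) in tibialis anterior at 24 months. With the covariate it was called in gastrocnemius at 27 months (0.18, adjusted p = 0.00961). The symbol Psmc3ip was called in gastrocnemius (0.26, adjusted p = 0.00661) and in no other muscle.

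At 6 months the constitutive subunits were compared between muscles. In a joint fit of all libraries, 26 of 31 were called higher and 1 lower in gastrocnemius than in diaphragm (72.4% of all genes called), 17 and 3 in soleus than in diaphragm (61.6%), 29 and 0 in tibialis anterior than in diaphragm (73.0%), 5 and 20 in soleus than in gastrocnemius (76.2%), 11 and 8 in tibialis anterior than in gastrocnemius (53.5%), and 24 and 4 in tibialis anterior than in soleus (76.0%). These shares count both directions. By direction, 4398 and 4858, 3817 and 4055, 4745 and 4589, 5158 and 4587, 3367 and 3473, and 4740 and 4978 of 12784 genes were called higher and lower. In total, the calls in soleus against diaphragm (20) and gastrocnemius (25) lie near the shares of all genes. Those in tibialis anterior against gastrocnemius (19) lie little above. The median differences of the constitutive subunits were 0.33, 0.10, 0.38, -0.20, 0.05 and 0.29. With total-count scaling the splits were 8 and 17, 11 and 6, 6 and 11, 19 and 8, 11 and 8, and 8 and 16, and the medians of all genes were -0.49, -0.04, -0.45, 0.47, -0.04 and -0.45. Relative to these medians the constitutive subunits were at 0.39, 0.10, 0.39, -0.27, 0.08 and 0.32, close to the TMM values of 0.39, 0.11, 0.39, -0.27, 0.09 and 0.32.

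For single members at 6 months, Psmg4 differed most between diaphragm and gastrocnemius, at ranges of 1.51 to 3.35 and 5.94 to 10.2 CPM without overlap (1.61, SE 0.11, adjusted p = 7.5e-35, gastrocnemius higher). Psmb10 was lower in soleus than in diaphragm by 0.74 on the log2 scale (difference -0.74, SE 0.14, adjusted p = 1.01e-06) and higher in tibialis anterior than in soleus (0.85, SE 0.14, adjusted p = 1.47e-08). Psmc5, an ATPase, was at 57.8 to 72.3 CPM in diaphragm and 98.0 to 113 CPM in tibialis anterior (0.73, SE 0.04, adjusted p = 3.69e-48). Psmb9 was lower in soleus than in gastrocnemius (-1.80, SE 0.23, adjusted p = 4.84e-13), with ranges of 0.293 to 0.963 and 1.26 to 2.35 CPM. Psme1 was lower in tibialis anterior than in gastrocnemius (-1.23, SE 0.10, adjusted p = 4.48e-28), with ranges of 25.4 to 36.9 and 62.0 to 115 CPM.

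Whether the change from 6 to 27 months differed between muscles was tested as an interaction in the joint fit. The shares of all genes in brackets count both directions. By direction, 3207 and 3404, 2055 and 2552, 2988 and 3172, 2375 and 2783, 1534 and 1913, and 2612 and 2355 of 12784 genes were called more positive and more negative, in the order of pairs below. Of the 31 constitutive subunits, the change was called more positive in gastrocnemius than in diaphragm for 8 and more negative for 14 (51.7% of all genes called), for 2 and 11 in soleus against diaphragm (36.0%), for 4 and 11 in tibialis anterior against diaphragm (48.2%), for 6 and 11 in soleus against gastrocnemius (40.3%), for 6 and 7 in tibialis anterior against gastrocnemius (27.0%), and for 4 and 3 in tibialis anterior against soleus (38.9%). With total-count scaling these splits were 18 and 1, 7 and 1, 27 and 0, 1 and 14, 8 and 5, and 16 and 0, and the median difference of all genes moved to 0.30, 0.16, 0.35, -0.15, 0.09 and 0.20 from values between -0.02 and 0.05 with TMM. Relative to the median of all genes, the constitutive median was lower in gastrocnemius, soleus and tibialis anterior than in diaphragm by the same rounded amounts under both scalings (differences of -0.11, -0.08 and -0.10).

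Psmc6 differed in its change in each pair with gastrocnemius. The change in gastrocnemius exceeded that in diaphragm by 0.88 (SE 0.12, adjusted p = 1.03e-11), that in soleus minus that in gastrocnemius was -0.78 (SE 0.12, adjusted p = 2.53e-09), and that in tibialis anterior minus that in gastrocnemius was -0.70 (SE 0.12, adjusted p = 2.97e-07). With the library axis as a covariate these differences were 0.19 (SE 0.06, adjusted p = 0.00974), -0.30 (SE 0.06, adjusted p = 1.58e-05) and -0.19 (SE 0.06, adjusted p = 0.0273), smaller and still called. Psmb8 rose more in tibialis anterior than in diaphragm (1.10, SE 0.23, adjusted p = 1.18e-05) and than in soleus (0.87, SE 0.25, adjusted p = 0.00226), and more in gastrocnemius than in diaphragm (0.83, SE 0.22, adjusted p = 0.000665). Between gastrocnemius and tibialis anterior the difference was 0.27 (SE 0.23, adjusted p = 0.413). The change of Psmb10 in soleus exceeded that in diaphragm by 0.58 (SE 0.18, adjusted p = 0.00732). For Psme1 the change in gastrocnemius was below that in diaphragm (-0.66, SE 0.13, adjusted p = 4.6e-06), and those in soleus (0.55, SE 0.13, adjusted p = 0.000208) and tibialis anterior (0.63, SE 0.13, adjusted p = 6.1e-05) exceeded that in gastrocnemius.

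The other genes of the pathway were taken from a list of 25 tested genes that regulate, assemble, supply or feed the proteasome. Of these, 12 were called higher and 3 lower in diaphragm, 10 and 5 in gastrocnemius, 11 and 4 in soleus and 9 and 6 in tibialis anterior at 27 months. As shares of the 25, the calls of higher level were 48%, 40%, 44% and 36%, beside 20.3%, 33.2%, 27.4% and 37.7% of all genes, and those of lower level 12%, 20%, 16% and 24%, beside 24.7%, 28.9%, 26.4% and 36.5%. Zfand2a, a heat- and arsenite-inducible factor that binds the proteasome, rose past 1.5-fold in gastrocnemius (1.40, SE 0.13), soleus (0.86, SE 0.10) and tibialis anterior (1.67, SE 0.13) and by 0.51 (SE 0.12) in diaphragm, each called. In soleus the protease Ddi2 rose past 1.5-fold (0.67, SE 0.06, adjusted p = 2.28e-16) and the shuttle factor Ubqln4 fell by 0.70 (SE 0.07, adjusted p = 3.95e-14). Ddi2 activates Nfe2l1, the main inducer of proteasome genes, which was not analysed here. The related factor Nfe2l2 rose in gastrocnemius (0.54, SE 0.08, adjusted p = 2.66e-08), soleus (0.12, adjusted p = 0.0387) and tibialis anterior (0.41, SE 0.05, adjusted p = 3.62e-11) and was at 0.06 (adjusted p = 0.53) in diaphragm. The core chaperone Pomp rose in diaphragm (0.31, SE 0.06, adjusted p = 3.53e-06), and its changes of -0.13, -0.01 and -0.01 in the other muscles were not called.

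Of 6 interferon and antigen-processing genes, 3 were called higher in diaphragm, 4 in gastrocnemius, 5 in soleus and 5 in tibialis anterior, beside 20.3%, 33.2%, 27.4% and 37.7% of all genes, and 1 was called lower in soleus. B2m, the light chain of class I molecules, moved from a median of 244 to 1116 CPM in gastrocnemius (2.21, SE 0.11, adjusted p = 6.61e-26) and from 204 to 1085 CPM in tibialis anterior (2.39, SE 0.14, adjusted p = 1.32e-25). Its changes were 0.69 (SE 0.07, adjusted p = 4.1e-14) in soleus and 0.30 (SE 0.08, adjusted p = 0.00188) in diaphragm. Tap1, a subunit of the transporter that carries proteasome products to class I molecules, rose by 1.03 in gastrocnemius, 0.56 in soleus and 1.42 in tibialis anterior and was at 0.24 (adjusted p = 0.0854) in diaphragm.

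Over the promoters, 43 of the 49 members had a window in RefSeq. The core of the antioxidant response element was present in 6 of 27 constitutive subunits (22.2%) and in 0 of 5 immunoproteasome members, against 12.1% of 33469 rat promoters of the same length. The CCAAT box was present in 14 of 27 (51.9%) and in 2 of 5, against 37.5%. The gamma-activated site was in 3 of 27 (11.1%) and in 1 of 5, against 8.87%, and the interferon-stimulated core in 5 of 27 (18.5%) and in 3 of 5, against 9.71%. These shares rest on few promoters and are given without a test.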

How the data were processed

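Bulk RNA of 4 muscles at 7 ages was sequenced as strand-specific total RNA after removal of ribosomal RNA. The authors deposited raw read counts per gene for each library, made with ArrayStudio on the rat B6.0 genome with a RefSeq-based gene model, and no normalised values were used. Lines of one symbol were summed, and 0 members stood on more than 1 line. Counts were scaled by TMM (edgeR 4.0.16) and fitted with limma-voom (limma 3.58.1, R 4.3.3), 1 fit per muscle over all ages, after filterByExpr (minimum count 10), and 1 joint fit of all libraries for comparisons between muscles. Between 11754 and 12175 genes were tested per muscle and 12784 jointly. Tests were two-sided, with Benjamini-Hochberg adjustment over all genes. The fits were checked on simulated data. The members and all lists were chosen with earlier results of these data known.

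Named by rule were the immunoproteasome members, their constitutive counterparts, members called past 1.5-fold at any age, the 2 constitutive subunits with the highest and the 2 with the lowest change in each muscle, the largest difference of each pair of muscles, and the pathway genes called past 1.5-fold at 27 months with Nfe2l2 and Pomp. Some genes of the lists are counted but not reported here by name. Psma3, Psmc6, Psme4 and the chaperones were described further after their values were seen. Alternatives were edgeR's quasi-likelihood test, DESeq2 1.42.0, total-count scaling, RLE scaling, no filter on low counts, symbols on more than 1 line left out, the 6- and 27-month libraries alone, sample weights, Bonferroni adjustment, a replicate block and leaving out the third series of running numbers. A library axis as covariate, Psma3 and Psma3l summed, and leaving out replicate 4 of gastrocnemius at 6 months were chosen after seeing the data. Columns of other samples numbered 0. Promoters came from RefSeq on GRCr8.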

Additional observations from a re-analysis of the deposited data

Results flagged for a closer look

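Among 36 group values of the described members, 4 held a library far from the rest of its group by Dixon's 95% limit, against about 1 in 20 groups by chance. In gastrocnemius at 21 months replicate 7 had 0.409% of its counts in the constitutive subunits, with 0.358% in the next of 9 libraries. In gastrocnemius at 24 months replicate 1 had 37.5 CPM of Psme2, with 25.7 in the next of 9. In gastrocnemius at 6 months replicate 8 had 114.8 CPM of Psme1 (next 90.0) and replicate 4 had 146 CPM of Psmb6 (next 123.8), of 10 libraries. Only the gastrocnemius groups of 6, 21 and 24 months, with 10, 9 and 9 libraries, were small enough for this limit, and libraries of the other groups were not checked in this way.

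The changes from 6 to 27 months that differed between muscles by the interaction term of limma-voom were as follows. For Psmb8 the change was larger in gastrocnemius than in diaphragm by 0.83 (SE 0.22, adjusted p = 0.000665), in tibialis anterior than in diaphragm by 1.10 (SE 0.23, adjusted p = 1.18e-05) and in tibialis anterior than in soleus by 0.87 (SE 0.25, adjusted p = 0.00226), and soleus minus gastrocnemius was -0.60 (SE 0.24, adjusted p = 0.0362). For Psmb10 soleus exceeded diaphragm by 0.58 (SE 0.18, adjusted p = 0.00732). For Psmc6 gastrocnemius exceeded diaphragm by 0.88 (SE 0.12, adjusted p = 1.03e-11), soleus minus gastrocnemius was -0.78 (SE 0.12, adjusted p = 2.53e-09) and tibialis anterior minus gastrocnemius was -0.70 (SE 0.12, adjusted p = 2.97e-07). With the library axis as a covariate these last 3 differences were 0.19 (adjusted p = 0.00974), -0.30 (adjusted p = 1.58e-05) and -0.19 (adjusted p = 0.0273).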

How the results depend on the processing

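Of the recomputed counts and medians, 287 stayed within their limits and 28 moved. Of the recomputed changes of named genes, 41 lost the call, 10 gained one and 17 changed sign. The 684 entries listed as unchanged hold the other changes of named genes and also medians of the within-library ratios. Those ratio medians were carried over from the main setting without being recomputed, so that they could not change. DESeq2 and edgeR moved none of the counts and medians past their limits. With total-count scaling the constitutive calls at 27 months were 28 in gastrocnemius, the median changes 0.35 in gastrocnemius, 0.23 in soleus and 0.41 in tibialis anterior, and the immunoproteasome calls 4 in gastrocnemius. At 6 months 17 constitutive subunits were then called between diaphragm and tibialis anterior, and the changes differed for 8 between diaphragm and soleus, 27 between diaphragm and tibialis anterior and 16 between soleus and tibialis anterior. Signs turned for Psma7 (0.00404), Psmb5 (0.0857) and Psme1 (0.14) in gastrocnemius, Psmb6 in soleus (0.0818), and Psma6 (0.11), Psmb6 (0.11) and Psmc6 (0.17) in tibialis anterior, as total-count scaling also moved the median of all genes. Bonferroni adjustment, stricter by construction, left 7, 6, 2 and 12 constitutive calls in diaphragm, gastrocnemius, soleus and tibialis anterior and 1, 2 and 2 immunoproteasome calls in diaphragm, soleus and tibialis anterior. It left 9 calls between diaphragm and soleus and 11 between gastrocnemius and tibialis anterior at 6 months, and differing changes for 10 (diaphragm and gastrocnemius), 1 (diaphragm and soleus), 2 (diaphragm and tibialis anterior), 3 (gastrocnemius and soleus), 2 (gastrocnemius and tibialis anterior) and 1 (soleus and tibialis anterior). With the library axis as covariate, chosen after seeing the data, 1 immunoproteasome member was called in diaphragm, and the changes differed for 12 subunits between diaphragm and gastrocnemius, 7 between gastrocnemius and soleus and 3 between gastrocnemius and tibialis anterior. Signs turned for Psmb10 in diaphragm (-0.17), Psma3 (-0.27), Psmb7 (-0.0169) and Psme4 (-0.23) in gastrocnemius and Psmb5 in soleus (-0.0496). Values near 0 changed sign without a filter for Psmb7 in gastrocnemius (-0.00107) and Psmb5 in soleus (-0.00061), with sample weights for Psme4 in gastrocnemius (-0.0415), without the third series of running numbers for Psmb5 in soleus (-8.04e-05), and without replicate 4 of gastrocnemius at 6 months for Psmb7 (-0.00545). Apart from the scaling and the stricter adjustment, the cause was not tested.

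Same-numbered libraries of one age in different muscles were not treated as paired, since their deviations correlated by 0.12 on average (from -0.62 to 0.74 over 468 pairs, 260 over 0.1) so that the rule of every pair over 0.1 was not met. The own number was the best partner in 166 of 468, among 9 to 13 candidates each, where 39.7 would be had if all candidates were equally likely, a hint from the data that numbers may be shared. With the replicate number as a replicate block the constitutive calls at 27 months were 22, 15, 19 and 27, and no named call changed. Within a muscle this block joins libraries of different ages, which come from different animals, so that it cannot address shared animals. With age and number together as the replicate block of the joint fit, the constitutive calls between muscles were 28, 20, 29, 25, 19 and 29 at 6 months and 23, 13, 16, 17, 13 and 7 for the change to 27 months, in the order of pairs used above, all within 1.5 times those without it.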
